A study of Homo sapiens with 36 samples.

Results

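The matrix metalloproteinases (MMP), the ADAM and ADAMTS proteinases and their tissue inhibitors (TIMP) were described in A549 cells exposed to cigarette smoke extract (CSE). The genes were taken by a rule on their names, chosen with earlier results of these data known. The rule kept every gene whose only symbol begins with MMP, ADAM, ADAMTS or TIMP directly followed by a digit, pseudogenes left out. There were 62 such genes, 22 MMP, 19 ADAM, 17 ADAMTS and 4 TIMP, of 18417 genes that the array names by 1 symbol. A549 is a human line derived from a lung adenocarcinoma and keeps some features of alveolar type II cells. Human Gene 1.0 ST arrays, 36 in number, read the RNA of 12 groups with 3 arrays each, namely cells without CSE as controls, and cells in CSE at 1%, 5% or 10% of the undiluted extract, each at 1, 3 and 5 weeks. Control and exposed cells were kept in low-serum medium, the CSE medium was renewed every day, and the cells of the later weeks had been subcultured between weeks. All groups are thus 1 cancer line in culture, with no other cell type, and the 3 arrays of a group are described as separate experiments.

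MMPs are secreted or membrane-bound enzymes that use a zinc ion to cut collagens, elastin and other matrix proteins, and many also release growth factors and cytokines. ADAMs sit in the cell membrane and release the outer parts of other membrane proteins, a step known as shedding, while ADAMTS enzymes are secreted and bind to the matrix, where several cut proteoglycans or trim procollagen. TIMPs block these enzymes, and in the lung the balance of enzymes and inhibitors is known for its part in emphysema and fibrosis.

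Levels are given as log2 values, as deposited, so that a difference of 1 is a doubling; a level belongs to the probes of 1 gene and was not set against that of another gene. A gene "rose" or "fell" where the Benjamini-Hochberg adjusted p over all 33297 transcript clusters was under 0.05 in limma. The stricter words "upregulated" and "downregulated" are kept for a log2 fold change past 1 in size together with B, the log odds of a true difference, above 0. The 3 control arrays of 5 weeks stood apart, with a spread of values (SD) of 2.15 to 2.21 over all clusters against 2.25 to 2.31 on the other 33 arrays. Their labels also conflict: titles and short codes give 5 weeks, while the free-text descriptions give 3 weeks. They were used as 5-week controls, and the 6 control arrays of weeks 1 and 3 served as a second set of controls for the cells of 5 weeks. The epithelial markers were present, with 10 of 13 above the brightness limit of 6.20 that the upper 60% of clusters pass, and with NKX2-1, SFTPB and SFTPC below it. Of markers of other cells, 4 of 7 fibroblast, 3 of 6 macrophage and leukocyte and 0 of 4 endothelial genes lay above that limit, from 6.30 for CSF1R to 7.65 for COL1A1 and 10.1 for CD68 as medians over the arrays. The leukocyte gene PTPRC and the fibroblast genes DCN and LUM were the dimmest, at medians of 3.83, 3.88 and 3.85. The summed level of the fibroblast markers was 9.26 to 9.52 on the 5-week control arrays and at most 9.22 in every other group. The endothelial markers, none of them above the limit, went the same way, at 7.61 to 7.84 on those arrays and at most 7.52 in every other group. The summed level of the leukocyte markers was highest in controls of 1 week, at 11.23 to 11.33, and lowest with CSE 1% at 3 weeks, at 9.56 to 9.95. Levels were summed before the log was taken, so this sum mostly follows CD68, which lay between 8.89 and 11.15 on the arrays. The next brightest marker of that list, CD14, had a median of 6.54. The part of these markers in the results was not tested.

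Few of the 62 genes changed at 1 and 3 weeks, and a handful carried the large changes: MMP7, MMP2, ADAM9, ADAM10, ADAM17, ADAM23 and ADAMTS10 were upregulated and ADAM12 was downregulated in at least 1 comparison with control of any week. ADAM10 and ADAM17 were upregulated at 5 weeks only, and not against the controls of weeks 1 and 3. At 1 week, 6 genes rose and 1 fell with CSE 1%, against 3.41% higher and 1.9% lower of all clusters. With CSE 5%, 5 rose and 4 fell, against 5.99% and 4.84% of all clusters. With CSE 10%, 5 rose and 5 fell, against 8.27% and 8.44%. In percent of the 62 genes these counts come to 9.68% and 1.61%, 8.06% and 6.45%, and 8.06% and 8.06%, so that with CSE 10% both shares lay close to those of all clusters. Centring each array on its housekeeping genes changed the split to 4 rose and 4 fell with CSE 1% and to 7 and 2 with CSE 5%, and cyclic loess changed the latter to 6 and 3.

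At 3 weeks, 7 genes rose and 2 fell with CSE 1%, against 5.67% and 5.81% of all clusters. With CSE 5%, 9 rose and 4 fell, against 9.7% and 9.93%. With CSE 10%, 9 rose and 4 fell, against 14% and 12.5%. In percent of the 62 genes, 11.3%, 14.5% and 14.5% rose and 3.23%, 6.45% and 6.45% fell, so that the share that fell was below that of all clusters at each concentration. The housekeeping genes were themselves lower by 0.12, 0.13 and 0.15 in exposed cells of this week, and centring on them gave 11 rose and 1 fell, 11 and 2, and 18 and 2.

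At 5 weeks many more genes fell: 8 rose and 26 fell with CSE 1%, 9 and 35 with CSE 5%, and 10 and 30 with CSE 10%. Of all clusters, 20.3% and 33.5%, 23% and 40.3%, and 21.9% and 39.6% did so, and the median change of the 62 genes was -0.20, -0.27 and -0.23 against -0.14, -0.17 and -0.17 over all clusters. Most of these falls were absent against other controls. Of the 32 genes below the brightness limit, none rose and 14 fell with CSE 1%, none rose and 21 fell with CSE 5%, and 2 rose and 17 fell with CSE 10%. Of the 30 genes above it, 12, 14 and 13 fell. Shares over all clusters on each side of the limit are not given, so these counts are not shown to be particular to the 62 genes. Against the controls of weeks 1 and 3, 2 of the 32 dim genes rose and 1 fell with CSE 1%, 3 rose and 2 fell with CSE 5%, and 4 rose and 2 fell with CSE 10%. Over all 62 genes the counts against those controls were 7 rose and 3 fell with CSE 1%, against 7.86% and 7.43% of all clusters. They were 11 and 9 with CSE 5%, against 13.1% and 13%, and 12 and 8 with CSE 10%, against 15% and 16%. With cyclic loess and the 5-week controls, 9 rose and 9 fell, 13 and 15, and 13 and 13; centring on housekeeping genes gave 11 and 16 with CSE 10%.

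**Figure D1:**
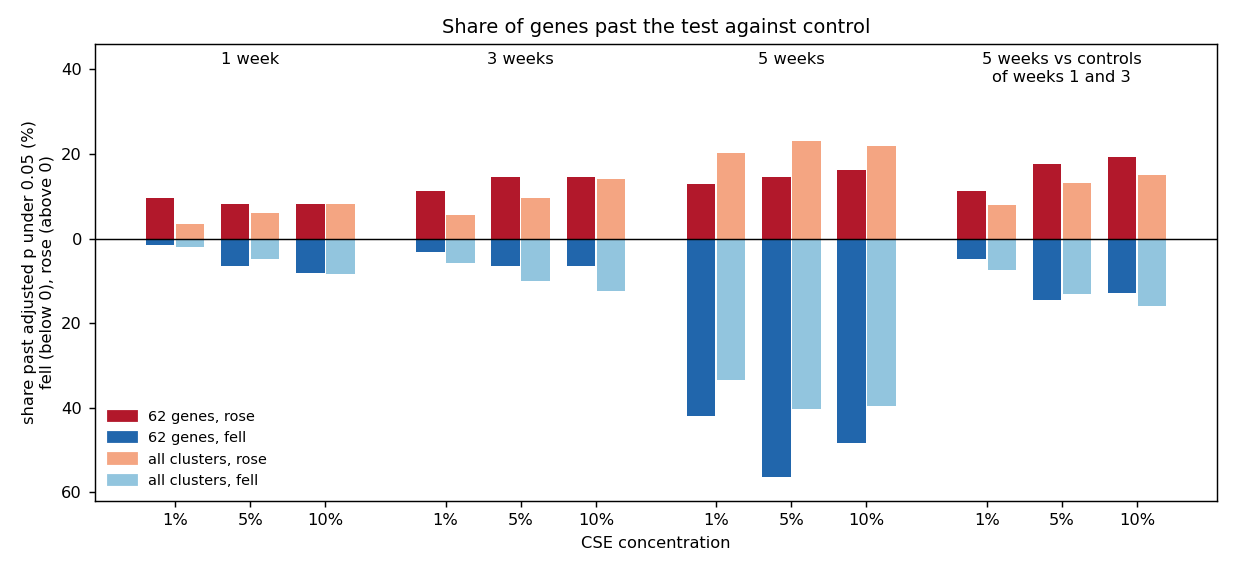
Share of the 62 genes (dark bars) and of all 33297 transcript clusters (light bars) that rose (above 0) or fell (below 0) against control at an adjusted p under 0.05, in percent, for CSE 1%, 5% and 10% at each week; the last 3 positions set the 5-week cells against the controls of weeks 1 and 3. The lower bars of 5 weeks are the longest in both sets and are far shorter against the other controls, where 3, 9 and 8 of the 62 genes fell.

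By the stricter thresholds, 0, 2 and 3 of the 62 genes changed at 1 week with CSE 1%, 5% and 10%, where 0.324%, 0.895% and 1.52% of all clusters did. At 3 weeks there were 3, 5 and 3, against 0.748%, 1.74% and 2.5% of all clusters. At 5 weeks there were 5, 8 and 5, against 4.02%, 9.15% and 9.08%. With the controls of weeks 1 and 3 there were only 3, 4 and 2, against 0.811%, 1.93% and 2.08%: MMP7 and ADAM12 at each concentration, ADAM23 with CSE 1% and 5%, and MMP2 with CSE 5%. Against the control of the same week, ADAM12 was the downregulated gene in all 8 comparisons that had one, and MMP7 was upregulated in the same 8.

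**Figure D2:**
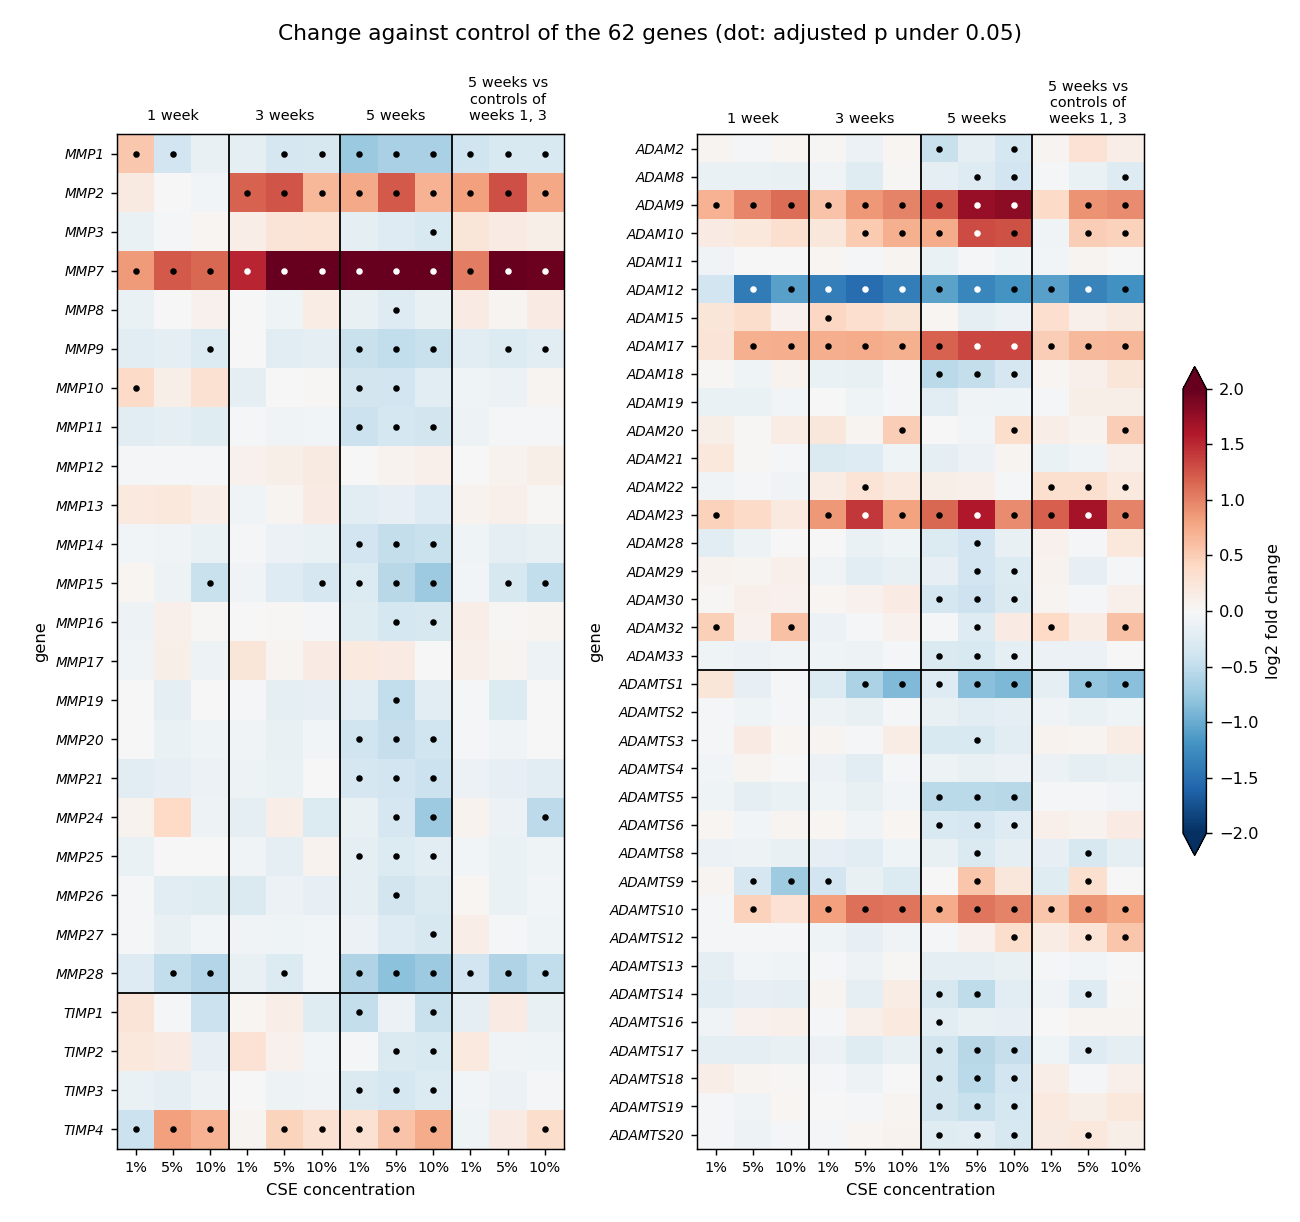
Log2 fold change of each of the 62 genes (rows; MMP and TIMP on the left, ADAM and ADAMTS on the right) against control, by CSE concentration and week (columns); red is higher in exposed cells, blue lower, colours end at 2 in either direction and a dot marks an adjusted p under 0.05. MMP7, ADAM9, ADAM17, ADAM23 and ADAMTS10 form the red rows and ADAM12 the blue row, and the pale blue field of 5 weeks thins out in the last 3 columns, against controls of weeks 1 and 3.

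Among the matrilysins, short MMPs without the hinge and hemopexin parts, MMP7 had the largest change of the 62 genes. At 1 week its level was 10.50, 10.44 and 10.25 in the 3 control cultures, 11.27, 11.22 and 11.24 with CSE 1%, 11.65, 11.53 and 11.69 with CSE 5%, and 11.50, 11.55 and 11.58 with CSE 10%. At 5 weeks it was 8.26, 9.13 and 9.15 in controls, 10.66, 10.88 and 11.18 with CSE 1%, 12.04, 12.12 and 11.94 with CSE 5%, and 11.78, 11.79 and 11.98 with CSE 10%. The exposed cultures lay above all controls of their week, without overlap, at 1, 3 and 5 weeks. With CSE 5% the log2 fold change was 1.22 (SE 0.183, adjusted p = 1.73e-05) at 1 week, 2.46 (SE 0.183, adjusted p = 2.82e-11) at 3 weeks and 3.18 (SE 0.183, adjusted p = 6.22e-14) at 5 weeks. Control cells themselves lost MMP7, by a log2 value of -1.02 from 1 to 3 weeks (SE 0.183, adjusted p = 0.000279) and of -0.53 from 3 to 5 weeks (SE 0.183, adjusted p = 0.0162). Within CSE 5% the mean level was 11.62, 11.84 and 12.03 at 1, 3 and 5 weeks. The changes at 5 weeks against controls of weeks 1 and 3 were 1.02, 2.14 and 1.96 with CSE 1%, 5% and 10%, with adjusted p of 2.52e-05, 1.38e-11 and 8.67e-11.

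CSE 5% also gave a higher MMP7 level than CSE 1%, by 0.94 at 3 weeks (SE 0.183, adjusted p = 0.00156) and by 1.13 at 5 weeks (SE 0.183, adjusted p = 0.000203). CSE 10% and CSE 5% differed by -0.17 at 3 weeks and -0.19 at 5 weeks, which did not pass the test. The other matrilysin, MMP26, was below the brightness limit, and it fell only with CSE 5% at 5 weeks, by -0.36, a call that was lost against the controls of weeks 1 and 3.

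MMP7 lies on chromosome 11 in a run of MMP genes with MMP20, MMP27, MMP8, MMP10, MMP1, MMP3, MMP12 and MMP13. None of these 8 neighbours rose at 3 or 5 weeks. The promoter of MMP7, from 250 bases before to 50 bases after the start site, is shown because the gene changed most and because it holds the AP-1 motif, the binding word of the Fos and Jun factors. The sequence is that of RefSeq on GRCh38.p14, chr11:102530698-102530997, minus strand, written 5′ to 3′ with the motif in capitals:

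MMP7: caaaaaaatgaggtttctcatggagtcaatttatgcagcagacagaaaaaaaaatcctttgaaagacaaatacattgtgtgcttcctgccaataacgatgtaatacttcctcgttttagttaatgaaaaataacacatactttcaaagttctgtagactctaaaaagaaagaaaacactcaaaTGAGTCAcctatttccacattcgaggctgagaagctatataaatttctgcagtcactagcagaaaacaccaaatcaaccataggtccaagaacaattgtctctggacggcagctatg

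The motif was searched as TGACTCA on both strands, and its match begins 67 bases before the start site. Of the 37 of 62 genes with a promoter in the table, MMP7 was the only match (2.7%), and 4.92% of all 27305 promoters of this length hold the motif. MMP1, MMP2, MMP3 and MMP9 were among the genes without a promoter there and could not be searched.

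The gelatinases, which cut denatured collagen and basement membrane collagen, moved apart. MMP2 passed the test at no concentration at 1 week and rose at 3 and 5 weeks. At 3 weeks its level was 6.16, 6.37 and 6.42 in controls, 7.43, 7.31 and 7.75 with CSE 1%, 7.34, 7.58 and 7.80 with CSE 5%, and 7.12, 6.91 and 6.91 with CSE 10%. All exposed cultures of 3 and 5 weeks lay above the controls of their week, while those of 1 week overlapped them. In order of concentration, its log2 fold changes at 1 week were 0.19, -0.01 and -0.05, those at 3 weeks 1.18, 1.26 and 0.66, and those at 5 weeks 0.76, 1.22 and 0.70 (SE 0.123). The adjusted p was at most 0.000136 in the last 6 and at least 0.447 in the first 3.

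MMP2 was higher with the middle concentration than with the highest. CSE 10% minus CSE 5% was -0.60 at 3 weeks (SE 0.123, adjusted p = 0.010) and -0.52 at 5 weeks (SE 0.123, adjusted p = 0.0151). The first call was lost on leaving out CSE 10% culture 2 or 3 or CSE 5% culture 2 or 3, at -0.60 to -0.48, and the second on leaving out CSE 10% culture 2 or 3 or CSE 5% culture 3, at -0.52 to -0.46. Against controls of weeks 1 and 3 the changes of 5 weeks were 0.82, 1.29 and 0.77, so this gene moved little with the choice of controls. MMP9 fell with CSE 10% at 1 week, by -0.28 (adjusted p = 0.0381), and at 5 weeks, by -0.45, -0.49 and -0.45 with CSE 1%, 5% and 10%. Its changes were, against controls of weeks 1 and 3, -0.23, -0.27 and -0.23, with adjusted p of 0.0557, 0.0134 and 0.0284. MMP9 was below the brightness limit, with a mean of 6.00 over all arrays, and lay between 5.67 and 6.44 on the arrays of 5 weeks. With cyclic loess its falls with CSE 1% and 10% were lost.

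The collagenases MMP1, MMP8 and MMP13, which open intact fibrillar collagen, were all below the brightness limit. MMP1 rose at 1 week with CSE 1%, where its level was 6.20, 6.01 and 6.52 against 5.52, 5.76 and 5.84 in controls (log2 fold change 0.54, SE 0.118, adjusted p = 0.00435). Without the third CSE 1% culture the change was 0.40 and the call was lost. MMP1 was at 5.47, 5.25 and 5.25 with CSE 5% in that week, and CSE 5% minus CSE 1% was -0.92 (SE 0.118, adjusted p = 1.94e-06). At 5 weeks MMP1 fell with every concentration, by -0.74, -0.64 and -0.64, and by -0.40, -0.31 and -0.31 against controls of weeks 1 and 3. MMP8 fell only with CSE 5% at 5 weeks, a call that was lost against controls of weeks 1 and 3, where the change was 0.05 (adjusted p = 0.734), and MMP13 passed the test in no comparison with control. Of the stromelysins, enzymes with a broad range of matrix substrates, MMP10 rose with CSE 1% at 1 week by 0.39, and no stromelysin passed the test at 3 weeks. MMP10 was below the brightness limit.

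MMP28, a secreted MMP of epithelia also called epilysin, fell in 6 of the 9 comparisons. At 1 week it was 7.46, 7.41 and 7.58 in controls, 6.89, 7.08 and 7.0 with CSE 5%, and 6.91, 6.78 and 6.99 with CSE 10%, without overlap. The changes with CSE 5% and 10% were -0.49 (SE 0.091, adjusted p = 0.0003) and -0.59 (SE 0.091, adjusted p = 1.55e-05). At 5 weeks it fell by -0.61, -0.82 and -0.72, and by -0.38, -0.60 and -0.50 against controls of weeks 1 and 3. At 3 weeks it fell only with CSE 5%, by -0.27, a call lost without control 1 or 2 or CSE 5% culture 1 or 3.

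The 6 membrane-type MMPs, which are held at the cell surface and include activators of MMP2, held no gene that rose in any comparison with control. MMP14, the main such activator, did not pass the test at 1 or 3 weeks and fell at 5 weeks by -0.38, -0.47 and -0.45, calls that were absent against controls of weeks 1 and 3. MMP15 fell with CSE 10% in each week, by -0.44, -0.34 and -0.72, and at 5 weeks also by -0.49 against the other controls. MMP24 fell with CSE 10% at 5 weeks by -0.73, and by -0.52 against controls of weeks 1 and 3. MMP10, MMP14, MMP15 and MMP24 were singled out after their values were seen.

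**Figure D3:**
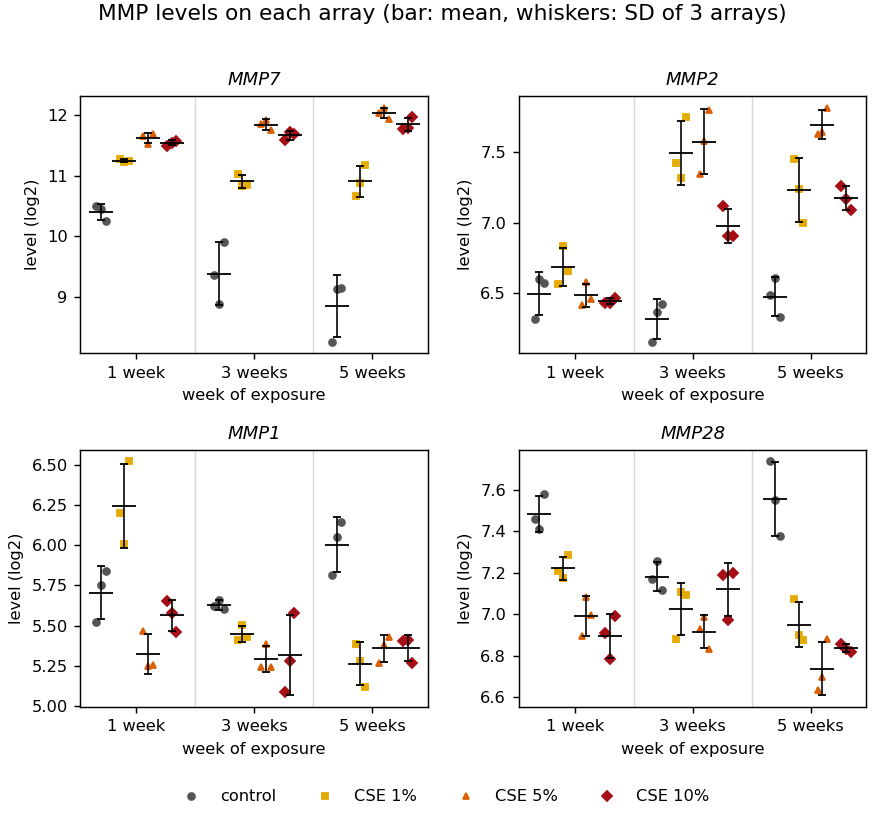
Levels of MMP7, MMP2, MMP1 and MMP28 (log2) on each of the 36 arrays by week and exposure; each point is 1 culture, the black bar the mean and the whiskers the SD of 3 cultures, and each panel has its own scale. MMP7 fell in control cells from 10.4 at 1 week to 8.85 at 5 weeks while all exposed cultures stayed at or above 10.66, and MMP2 separated from controls at 3 and 5 weeks only.

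Of the 19 ADAM genes, 4, 5 and 5 rose at 3 weeks with CSE 1%, 5% and 10%, and ADAM12 was the only one that fell; these are 21.1%, 26.3% and 26.3% higher and 5.26% lower, beside 5.67%, 9.7% and 14% higher and 5.81%, 9.93% and 12.5% lower of all clusters. ADAM9, an active sheddase, rose in all 9 comparisons with control. At 1 week its level was 10.49, 10.39 and 10.09 in controls, 11.17, 10.94 and 10.94 with CSE 1%, 11.27, 11.14 and 11.49 with CSE 5%, and 11.30, 11.45 and 11.59 with CSE 10%. At 5 weeks it was 9.52, 9.81 and 9.60 in controls, 10.35, 10.87 and 11.39 with CSE 1%, 11.50, 11.28 and 11.38 with CSE 5%, and 11.33, 11.43 and 11.57 with CSE 10%. The cultures with CSE 5% and 10% did not overlap the controls in any week, and CSE 1% overlapped them at 3 weeks. With CSE 10% the log2 fold change was 1.12 (SE 0.185, adjusted p = 4.11e-05) at 1 week, 0.99 (SE 0.185, adjusted p = 0.00015) at 3 weeks and 1.79 (SE 0.185, adjusted p = 7.52e-09) at 5 weeks. The larger value of 5 weeks went with the controls, in which ADAM9 was lower by -1.01 at 5 than at 3 weeks (adjusted p = 6.75e-05). Against controls of weeks 1 and 3 the changes of 5 weeks were 0.38, 0.90 and 0.95 with CSE 1%, 5% and 10%, and the first did not pass the test (adjusted p = 0.116). With CSE 1% at 3 weeks the change was 0.58, and it no longer passed without control 1 or 2 or CSE 1% culture 1 or 2 of that week, at 0.36 to 0.64; with CSE 1% at 1 week the change of 0.70 no longer passed without control 3 or CSE 1% culture 1 or 3, at 0.58 to 0.73.

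ADAM17, the enzyme that releases TNF-alpha and several ligands of the EGF receptor, rose in 8 of 9 comparisons. Its level at 1 week was 9.58, 9.61 and 9.57 in controls, 9.95, 9.78 and 9.82 with CSE 1%, 10.37, 10.24 and 10.28 with CSE 5%, and 10.26, 10.35 and 10.32 with CSE 10%. All exposed cultures of each week lay above its controls, though the change of 0.26 with CSE 1% at 1 week did not pass the test (adjusted p = 0.125). The changes at 3 weeks were 0.72, 0.74 and 0.70 (SE 0.097, adjusted p at most 4.3e-06). At 5 weeks they were 1.18, 1.34 and 1.34, and against controls of weeks 1 and 3 they were 0.49, 0.65 and 0.66 with adjusted p of at most 8.89e-05. Control cells were lower at 5 than at 3 weeks by -0.70 (adjusted p = 3.69e-06).

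ADAM10, the sheddase of Notch receptors and cadherins, passed the test from 3 weeks on. It did so at no concentration at 1 week, where the changes were 0.17, 0.21 and 0.32 (SE 0.171). At 3 weeks its level was 10.94, 10.59 and 10.99 in controls, 11.43, 11.21 and 11.44 with CSE 5%, and 11.52, 11.48 and 11.67 with CSE 10%. These groups did not overlap, and ADAM10 rose by 0.52 (adjusted p = 0.031) and 0.72 (adjusted p = 0.00207). The first call was lost without control 2 or CSE 5% culture 1 or 3, at 0.39 to 0.48. At 5 weeks it rose by 0.74, 1.31 and 1.28, while against controls of weeks 1 and 3 the changes were -0.07, 0.50 and 0.46 with adjusted p of 0.816, 0.013 and 0.0173. The sign with CSE 1% thus turned with the choice of controls.

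ADAM23, which by general knowledge lacks the zinc-binding motif and acts in cell adhesion, had its highest levels at 3 and 5 weeks with the middle concentration. At 3 weeks its level was 6.11, 6.30 and 6.10 in controls, 7.27, 6.83 and 7.01 with CSE 1%, 7.65, 7.47 and 7.64 with CSE 5%, and 6.90, 7.01 and 7.01 with CSE 10%. The log2 fold changes were 0.87, 1.42 and 0.80 (SE 0.137), and at 5 weeks they were 1.14, 1.61 and 0.94, with adjusted p of at most 4.95e-05 in all 6. CSE 5% minus CSE 1% was 0.55 at 3 weeks (adjusted p = 0.0136) and 0.47 at 5 weeks, where it did not pass the test (adjusted p = 0.0558). CSE 10% minus CSE 5% was -0.61 at 3 weeks (SE 0.137, adjusted p = 0.0195) and -0.67 at 5 weeks (SE 0.137, adjusted p = 0.00414). Of these calls, that between CSE 5% and 1% at 3 weeks was lost without 4 of the 6 arrays compared (CSE 1% culture 2 or 3, CSE 5% culture 1 or 3), that between CSE 10% and 5% at 3 weeks without any but CSE 5% culture 2, and that at 5 weeks without CSE 10% culture 2 or CSE 5% culture 1. The changes of 5 weeks were 1.19, 1.66 and 0.99 against controls of weeks 1 and 3. At 1 week it rose only with CSE 1%, by 0.47 (adjusted p = 0.041), a call that was lost without any 1 of 5 arrays (all but CSE 1% culture 1), at 0.38 to 0.50.

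ADAM12, an ADAM of muscle, placenta and activated mesenchymal cells, fell in 8 of 9 comparisons. At 1 week its level was 7.57, 7.63 and 7.33 in controls, 6.94, 7.0 and 7.46 with CSE 1%, 6.04, 6.19 and 6.09 with CSE 5%, and 6.57, 6.28 and 6.40 with CSE 10%. CSE 5% and 10% lay below all controls and CSE 1% overlapped them, and the changes were -0.38 (adjusted p = 0.0588), -1.41 (adjusted p = 4.87e-10) and -1.09 (adjusted p = 3.64e-08), each with an SE of 0.117. At 3 weeks CSE 1% had reached the level of the others, with 6.26, 6.43 and 6.24 against 7.77, 7.80 and 7.51 in controls, and the changes were -1.38, -1.52 and -1.39. At 5 weeks they were -1.07, -1.31 and -1.19, and against controls of weeks 1 and 3 they were -1.09, -1.33 and -1.22. The 9 control arrays lay between 7.33 and 7.80, so the choice of controls hardly moved this gene.

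The promoters of ADAM10, ADAM17 and ADAM12 are shown beside each other because the first pair rose and the third fell. Capitals mark GCGTG, the core word of the xenobiotic response element to which the aryl hydrocarbon receptor binds, a receptor that smoke constituents are known to activate; it was searched on both strands. The sequences are those of RefSeq on GRCh38.p14, at chr15:58749658-58749957, chr2:9555781-9556080 and chr10:126388428-126388727, all on the minus strand and written 5′ to 3′:

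ADAM10: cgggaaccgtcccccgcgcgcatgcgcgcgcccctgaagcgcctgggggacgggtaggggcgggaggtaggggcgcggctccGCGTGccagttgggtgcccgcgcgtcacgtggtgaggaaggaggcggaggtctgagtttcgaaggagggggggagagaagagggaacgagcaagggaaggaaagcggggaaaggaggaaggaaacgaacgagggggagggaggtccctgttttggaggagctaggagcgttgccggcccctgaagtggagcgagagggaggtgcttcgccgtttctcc

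ADAM17: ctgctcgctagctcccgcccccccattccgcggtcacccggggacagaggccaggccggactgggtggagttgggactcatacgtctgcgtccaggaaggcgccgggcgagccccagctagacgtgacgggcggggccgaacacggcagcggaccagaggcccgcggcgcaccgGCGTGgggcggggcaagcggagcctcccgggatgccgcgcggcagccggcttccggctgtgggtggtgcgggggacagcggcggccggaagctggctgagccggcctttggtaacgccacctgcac

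ADAM12: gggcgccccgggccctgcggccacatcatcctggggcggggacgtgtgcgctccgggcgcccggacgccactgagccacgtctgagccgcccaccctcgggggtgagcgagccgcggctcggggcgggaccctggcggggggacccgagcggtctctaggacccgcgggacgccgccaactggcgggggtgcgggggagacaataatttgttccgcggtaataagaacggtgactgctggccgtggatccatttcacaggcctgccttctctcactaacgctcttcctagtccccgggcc

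The word begins 168 bases before the start site in ADAM10 and 76 bases before it in ADAM17, and these letters are not in the ADAM12 and MMP7 windows. Of the 37 promoters with a sequence, 13 hold it (35.1%), and 36.3% of all 27305 promoters do. By family these were 1 of 11 MMP, 5 of 12 ADAM, 5 of 11 ADAMTS and 2 of 3 TIMP promoters. A match of letters says nothing of binding in these cells.

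Of the remaining ADAM genes, ADAM32, a testis ADAM, rose at 1 week with CSE 1% and 10%, by 0.48 and 0.58, and not with CSE 5%, at 0.08. Its levels of that week were 5.88, 5.85 and 6.04 in controls, 6.43, 6.43 and 6.35 with CSE 1%, 5.95, 5.95 and 6.10 with CSE 5%, and 6.35, 6.61 and 6.55 with CSE 10%. CSE 1% and 10% lay above the controls and CSE 5% overlapped them. CSE 5% minus CSE 1% was -0.40 (adjusted p = 0.0137), a call lost without 4 of the 6 arrays (culture 1 or 2 of either group), and CSE 10% minus CSE 5% was 0.51 (adjusted p = 0.00407). At 5 weeks ADAM32 was at -0.02, -0.26 and 0.17 against the controls of that week and at 0.40, 0.16 and 0.59 against those of weeks 1 and 3, so the sign of the first 2 turned. Named after their values were seen, ADAM15 rose only with CSE 1% at 3 weeks (0.42), ADAM22 only with CSE 5% at 3 weeks (0.28), and ADAM20 with CSE 10% at 3 and 5 weeks (0.49 and 0.35, the latter 0.49 against controls of weeks 1 and 3). ADAM20, ADAM22 and ADAM32 were below the brightness limit.

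**Figure D4:**
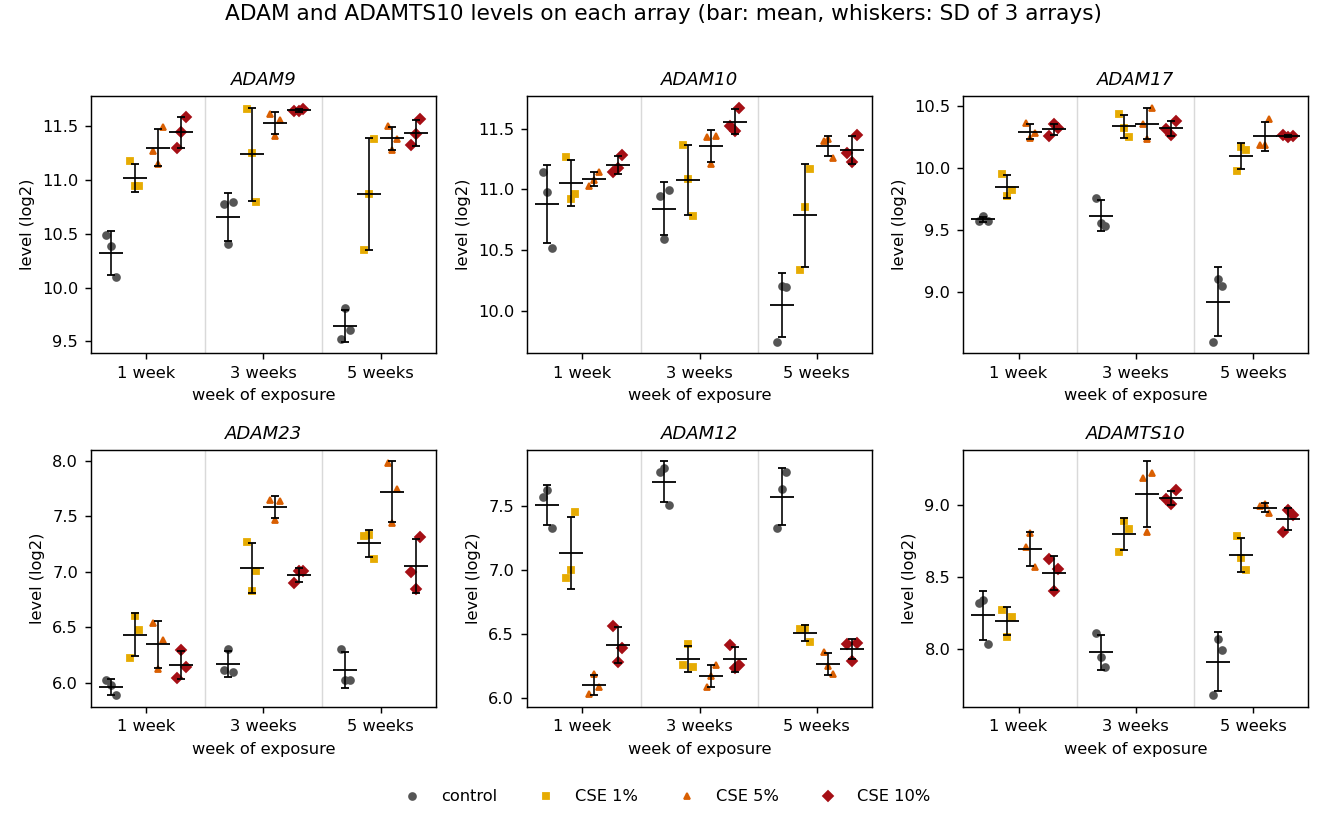
Levels of ADAM9, ADAM10, ADAM17, ADAM23, ADAM12 and ADAMTS10 (log2) on each of the 36 arrays by week and exposure; each point is 1 culture, the black bar the mean and the whiskers the SD of 3 cultures, and each panel has its own scale. ADAM9, ADAM10 and ADAM17 were lower in the 5-week controls than in the earlier ones, by -1.01, -0.79 and -0.70 against 3 weeks, whereas those of ADAM12 and ADAM23 differed by -0.12 and -0.05, which did not pass the test.

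Of the 17 ADAMTS genes, ADAMTS10, an enzyme linked to fibrillin microfibrils, was the one with a large rise. Its level at 3 weeks was 8.11, 7.95 and 7.87 in controls, 8.67, 8.89 and 8.83 with CSE 1%, 9.19, 8.81 and 9.22 with CSE 5%, and 9.04, 9.0 and 9.10 with CSE 10%. All exposed cultures of 3 and 5 weeks lay above their controls. The changes were 0.82, 1.10 and 1.07 (SE 0.109, adjusted p at most 3.13e-06) at 3 weeks and 0.74, 1.07 and 0.99 at 5 weeks. The latter were, against controls of weeks 1 and 3, 0.55, 0.88 and 0.80, with adjusted p of at most 9.16e-05. At 1 week it rose only with CSE 5%, by 0.46 (adjusted p = 0.00425), and without the third control of that week the change was 0.36 and the call was lost.

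The 6 proteoglycanases, which cut aggrecan or versican, showed the opposite sign in ADAMTS1. Its level at 3 weeks was 7.39, 7.53 and 7.20 in controls, 7.10, 7.08 and 7.11 with CSE 1%, 6.76, 6.84 and 6.63 with CSE 5%, and 6.45, 6.54 and 6.50 with CSE 10%. The groups did not overlap, and the changes with CSE 5% and 10% were -0.63 (SE 0.107, adjusted p = 5.66e-05) and -0.88 (SE 0.107, adjusted p = 2.85e-07). At 5 weeks they were -0.83 and -0.90, and -0.77 and -0.83 against controls of weeks 1 and 3. At 1 week ADAMTS1 did not pass the test at any concentration.

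Against the control of its week, ADAMTS9 changed direction with time. It fell with CSE 5% and 10% at 1 week, by -0.33 and -0.71, and with CSE 1% at 3 weeks, by -0.38. At 5 weeks it rose with CSE 5%, by 0.56 (adjusted p = 7.66e-05), with levels of 8.32, 8.16 and 8.09 against 7.34, 7.75 and 7.81 in controls. The rise was 0.32 (adjusted p = 0.0102) against controls of weeks 1 and 3. Control cells themselves had more ADAMTS9 at 3 than at 1 week, by 0.45 (adjusted p = 0.00495), and less at 5 than at 3 weeks, by -0.46 (adjusted p = 0.000811). The 3-week controls were at 8.13, 8.18 and 7.98. With CSE 1% the level was 7.72, 7.60 and 7.79 at 1 week and 7.78, 7.61 and 7.76 at 3 weeks. The change with CSE 10% at 5 weeks exceeded that at 1 week by 0.93 (SE 0.151, adjusted p = 4.92e-05).

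ADAMTS5, a major aggrecanase, fell at 5 weeks by -0.53, -0.53 and -0.56, and its changes against controls of weeks 1 and 3 were -0.03, -0.03 and -0.06. It was higher in the 5-week controls, at 5.57, 5.63 and 5.55, than in any other culture. The procollagen N-proteinases ADAMTS2, ADAMTS3 and ADAMTS14 passed the test in no comparison of 1 or 3 weeks. ADAMTS14 fell at 5 weeks with CSE 1% and 5%, by -0.31 and -0.50, and with CSE 5% also against the controls of weeks 1 and 3, by -0.26.

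Of the 4 inhibitors, TIMP4 alone passed the test at 1 or 3 weeks. At 1 week its level was 9.24, 9.49 and 9.73 in controls, 8.97, 9.13 and 9.05 with CSE 1%, 10.40, 10.31 and 10.19 with CSE 5%, and 10.33, 10.10 and 10.10 with CSE 10%. CSE 1% lay below and CSE 5% and 10% above all controls. TIMP4 fell with CSE 1%, by -0.44 (SE 0.113, adjusted p = 0.0175), and rose with CSE 5% and 10%, by 0.81 (SE 0.113, adjusted p = 5.35e-06) and 0.69 (SE 0.113, adjusted p = 3.89e-05). CSE 5% minus CSE 1% was 1.25 (SE 0.113, adjusted p = 3.19e-09). The fall with CSE 1% was lost without control 2 or 3 or CSE 1% culture 1 or 3, at -0.43 to -0.32.

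At 3 weeks TIMP4 rose with CSE 5% and 10% by 0.44 and 0.31, the latter lost without any 1 of 5 arrays (all but CSE 10% culture 2), and at 5 weeks by 0.30, 0.56 and 0.75. Against controls of weeks 1 and 3 the changes of 5 weeks were -0.09, 0.17 and 0.35, of which only the last passed the test (adjusted p = 0.00617), and the first had turned its sign. Control cells lost TIMP4 between 1 and 3 weeks, from a mean of 9.49 to 8.92, by -0.57 (SE 0.113, adjusted p = 0.000796). Their mean was 8.81 at 5 weeks, and the change from 3 weeks, -0.11, did not pass the test (adjusted p = 0.439). The pooled controls of weeks 1 and 3 thus hold the higher level of 1 week.

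TIMP1, TIMP2 and TIMP3 passed the test against control at 5 weeks only, and each of these calls was lost against the controls of weeks 1 and 3. TIMP1 was at 11.53, 11.33 and 11.44 in controls of 5 weeks, 11.30, 10.87 and 10.71 with CSE 1%, 11.64, 11.18 and 11.09 with CSE 5%, and 10.88, 11.00 and 11.10 with CSE 10%. It fell with CSE 1% and 10%, by -0.47 and -0.44, and against the other controls the changes were -0.18 and -0.15. TIMP2, which takes part in the activation of MMP2 at the cell surface, fell with CSE 5% and 10%, by -0.28 and -0.30. TIMP3, which binds to the matrix and also blocks ADAM17, fell by -0.29, -0.36 and -0.28 and was below the brightness limit. The SE of these changes was 0.177, 0.119 and 0.110, so that at 1 and 3 weeks changes of the size seen in TIMP4 with CSE 5% at 1 week were not found in TIMP2 or TIMP3, whose changes lay between -0.19 and 0.29.

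**Figure D5:**
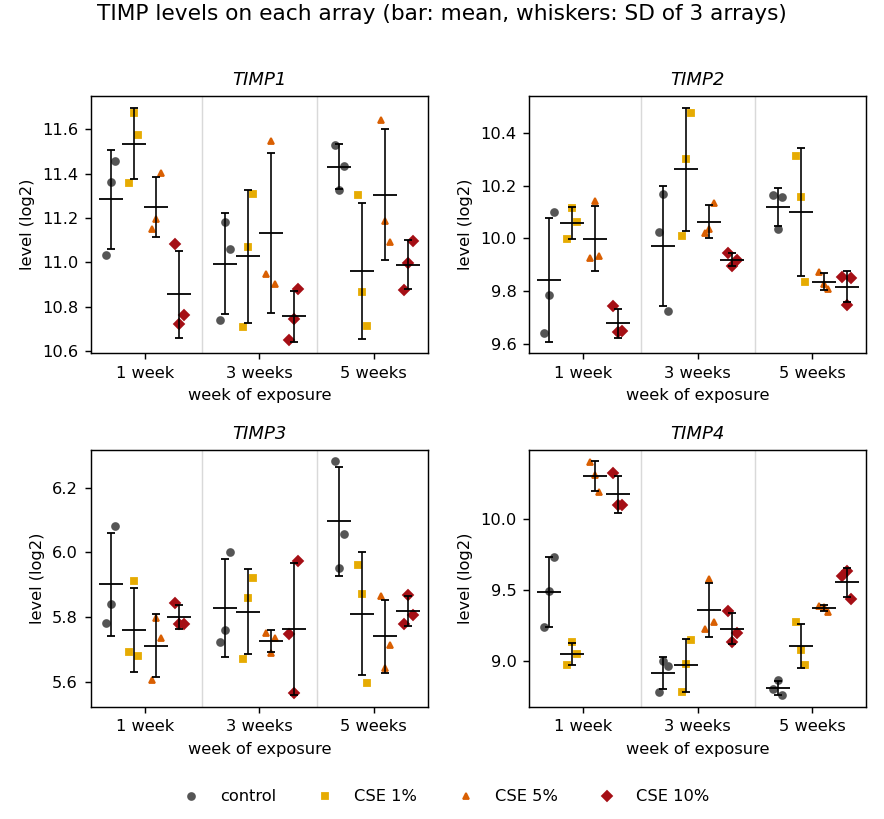
Levels of the 4 TIMP genes (log2) on each of the 36 arrays by week and exposure; each point is 1 culture, the black bar the mean and the whiskers the SD of 3 cultures, and each panel has its own scale. TIMP4 separated CSE 5% and 10% from controls and CSE 1% at 1 week, while the groups of the other 3 inhibitors overlapped in most weeks.

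Concentrations were compared with each other within a week. Between CSE 5% and 1%, 8 genes differed at 1 week, 4 at 3 weeks and 4 at 5 weeks, where 6.73%, 5.51% and 3.54% of all clusters did. Between CSE 10% and 5%, 3, 3 and 4 differed, against 3.27%, 0.967% and 2.22%. The 8 genes of 1 week were MMP1, ADAM12, ADAM17, ADAM32, ADAMTS1, ADAMTS9, ADAMTS10 and TIMP4, with TIMP4 and ADAM12 at the ends, at 1.25 and -1.03. Of these, the calls of ADAM32, ADAMTS1 and ADAMTS9 were lost without 4, 3 and 4 of the 6 arrays, while the others held without any 1 array. Between CSE 10% and 5% at 1 week, the calls of ADAMTS9 and MMP24 were each lost without 5 of the 6 arrays, and that of ADAM32 held. MMP2 and ADAM23 were lower with CSE 10% than with CSE 5% at both 3 and 5 weeks, and ADAM20 was higher in both, by 0.43 and 0.41. These calls were often lost on leaving out 1 array: that of ADAM20 was lost without any 1 of the 6 arrays at 3 weeks and without 4 of them at 5 weeks, and those of MMP2 and ADAM23 without 4 and 5 of them at 3 weeks and without 3 and 2 at 5 weeks.

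The change against control differed between 5 weeks and 1 week in 15, 21 and 15 genes with CSE 1%, 5% and 10%, where 21%, 30.7% and 29.6% of all clusters did. These differences hold the change of the controls between the weeks as well as that of exposed cells. Control cells at 3 weeks had 4 genes higher and 3 lower than at 1 week, against 6.23% and 5.27% of all clusters. Those at 5 weeks had 29 higher and 5 lower than at 3 weeks, against 31.7% and 21.8% of all clusters. Of the 32 genes below the brightness limit, 21 were higher and none lower in the latter comparison. The share over all clusters below the limit is not given, so this count is not shown to be particular to these genes. The 5 genes that were lower in controls of 5 than of 3 weeks were MMP7, ADAM9, ADAM10, ADAM17 and ADAMTS9.

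Genes known to regulate these proteinases were looked at as a list of 29, all of them measured. The list was drawn up with earlier results of these data known, so its shares are a description and not an independent test. At 1 week 3 rose (10.3%) at each concentration and 2, 6 and 10 fell, which is 6.9%, 20.7% and 34.5% beside 1.9%, 4.84% and 8.44% of all clusters. At 3 weeks 8, 10 and 7 rose with CSE 1%, 5% and 10%, or 27.6%, 34.5% and 24.1% beside 5.67%, 9.7% and 14% of all clusters, and 4, 3 and 4 fell, or 13.8%, 10.3% and 13.8% beside 5.81%, 9.93% and 12.5%. At 5 weeks 5, 8 and 7 rose and 6, 6 and 9 fell, or 17.2%, 27.6% and 24.1% and 20.7%, 20.7% and 31%, beside 20.3%, 23% and 21.9% higher and 33.5%, 40.3% and 39.6% lower of all clusters; 7, 9 and 6 rose and 6, 5 and 9 fell against controls of weeks 1 and 3. The median change of the list at 3 weeks was 0.09, 0.02 and 0.00, beside -0.00, -0.04 and 0.01 over all clusters.

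Tetraspanins of the TspanC8 group, which carry ADAM10 to the cell surface and steer its substrates, were among the genes that rose. TSPAN15 rose in all 9 comparisons, by 0.38, 0.89 and 0.61 at 1 week and by 0.89, 1.36 and 1.23 at 3 weeks with CSE 1%, 5% and 10%. TSPAN5 rose at 3 weeks by 1.11, 1.15 and 0.99. TSPAN14 rose in 7 of the 9, by 0.50, 0.62 and 0.28 at 3 weeks. TSPAN33 fell with CSE 10% at 1 and 5 weeks, by -0.40 and -0.45, the latter also -0.45 against controls of weeks 1 and 3, and TSPAN17 rose only with CSE 5% at 3 weeks. TSPAN10 fell at 5 weeks, a call that was lost against controls of weeks 1 and 3.

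RECK, a membrane inhibitor of several MMPs, rose with CSE 5% and 10% at 3 weeks, by 0.60 and 0.61, and at 5 weeks by 0.41, 0.65 and 0.83, or 0.29, 0.54 and 0.72 against controls of weeks 1 and 3. FURIN, the convertase that removes the propeptide of many ADAMs and membrane-type MMPs, fell in 8 of 9 comparisons, by -0.44, -0.50 and -0.46 at 3 weeks. BSG, a surface protein known to induce MMPs in neighbouring cells, fell in the same 8, by -0.47, -0.71 and -0.95 at 3 weeks. RHBDF1 and RHBDF2, partners of ADAM17 on its way to the surface, rose at 3 weeks, RHBDF1 by 0.42, 0.44 and 0.29 with CSE 1%, 5% and 10%, and RHBDF2 by 0.47 and 0.36 with CSE 1% and 5%. These genes of the list were named after their values were seen.

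A second list, drawn up under the same limit, held 15 measured genes of related metzincins and ADAMTS-like proteins, the latter lacking the catalytic part. At 3 weeks 2, 3 and 2 rose and none fell, or 13.3%, 20% and 13.3% beside 5.67%, 9.7% and 14% higher of all clusters. At 5 weeks 2, 2 and 1 rose and 8, 9 and 9 fell, the latter 53.3%, 60% and 60% beside 33.5%, 40.3% and 39.6% lower of all clusters. The counts of 5 weeks were, against controls of weeks 1 and 3, 1, 3 and 2 rose and 0, 0 and 1 fell. PAPPA, which cuts binding proteins of insulin-like growth factor, rose by 0.41 and 0.47 with CSE 5% and 10% at 3 weeks and by 0.94, 1.45 and 1.60 at 5 weeks, or 0.01, 0.52 and 0.66 against the other controls.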

How the data were processed

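RNA of A549 cells was hybridised to 36 arrays in 12 groups of 3. Following the labels and the study's methods, the authors took probe intensities through RMA in the oligo package (background correction, normalization between arrays, a summary per transcript cluster) and deposited log2 values. Tools named by the submitters' processing notes are R 2.11.0, RMA and limma; which genome build the annotation used is not stated there. RMA makes the distributions of arrays alike, so a shift shared by most genes may be removed or seen only in part. The deposited values were not fully alike, with an SD of 2.15 to 2.21 on the 5-week control arrays against 2.25 to 2.31 on the others.

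The deposited log2 values, from 2.29 to 14.5 with array medians of 6.72 to 6.91, were used as they stand. No 2 arrays were copies (highest correlation 0.996). By the platform's annotation 19460 clusters had 1 symbol, 1754 had several and were left unnamed, and 12083 had none. Of symbols matching the rule, 4 pseudogenes were left out, and the 2 genes with several clusters were read from their brightest cluster on average. The members and lists were chosen with earlier results of these data known.

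All arrays entered 1 fit in limma 3.58.1 (R 4.3.3), with a mean per group, 24 residual and 3.91 prior degrees of freedom, a prior proportion of changed clusters of 0.01, and Benjamini-Hochberg adjustment over 33297 clusters; it was tested on simulated data. Contrasts were each concentration against the control of its week (the 3 of a week share their controls), neighbouring concentrations, the change at 5 weeks minus that at 1 week, and controls between weeks. Named are the TIMP genes, MMP2, MMP7 and MMP9, every member beyond the stricter thresholds in any contrast, and the 2 members per family with the smallest p in each comparison with control, 20 in all; others are named where said. Same-numbered arrays correlated over 0.1 in their deviations in 6 of 27 pairs, in all 3 pairs only for CSE 1% against control at 5 weeks (0.10 to 0.32), and were not paired in the fit. P-values rest on the spread among replicate arrays, whose number limits the precision. Alternatives were another normalization, centring on housekeeping genes, the replicate block, fewer arrays or clusters, the mean of a gene's clusters, other controls at 5 weeks and leaving out each array. Promoters were those of RefSeq on GRCh38.p14, with 37 of 62 genes matched.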

Additional observations from a re-analysis of the deposited data

Results flagged for a closer look

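The change against control differed between 5 weeks and 1 week by a tested log2 difference beyond 1 in 7 cases. MMP7 changed more at 5 weeks than at 1 week with each concentration, by 1.21 with CSE 1%, 1.96 with CSE 5% and 1.86 with CSE 10% (adjusted p = 0.00178, 5.49e-06 and 6.98e-06 in limma). MMP1 changed by -1.28 between these weeks with CSE 1% (adjusted p = 5.46e-06), having risen at 1 week and fallen at 5 weeks. With CSE 5% the difference was 1.23 for MMP2, 1.10 for ADAM10 and 1.23 for ADAM23 (adjusted p = 1.3e-05, 0.00153 and 5.56e-05). These differences hold the change of the control cells between 1 and 5 weeks. For MMP7 that change was -1.02 from 1 to 3 weeks and -0.53 from 3 to 5 weeks. The levels of exposed cells alone, at 5 weeks minus 1 week, hold no control array. For MMP7 with CSE 1%, 5% and 10% they differed by -0.34, 0.41 and 0.31, and for ADAM10 with CSE 5% by 0.27. None of these passed the test (adjusted p = 0.239, 0.132, 0.295 and 0.312 in limma). MMP1 with CSE 1% at -0.98, and MMP2 at 1.21 and ADAM23 at 1.38 with CSE 5%, passed it (adjusted p = 7.3e-07, 1.48e-08 and 1.09e-08). A change with time in culture is not taken out of these values.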

How the results depend on the processing

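No call among the 20 named genes reversed under cyclic loess, housekeeping centring, the replicate block, a fit of the compared arrays alone, the 60% brightest clusters, the mean of a gene's clusters or leaving out any 1 array, but calls were lost: 18 of 240 values under loess, 15 of 240 under centring, 31 of 240 with the compared arrays alone, 3 of 240 under the block, 137 of 1800 on leaving out 1 array, and 27 of 120 with the controls of weeks 1 and 3. The totals also count values that had not passed the test as reported, so the share of calls lost is larger. Of these 120, the changes at 5 weeks had the controls of weeks 1 and 3 in place of the 5-week ones. For the differences between weeks, the same controls on both sides cancel. What is left is exposed cells at 5 weeks minus 1 week, which is another quantity. In all, 12 of 120 values changed sign and passed the test on at least 1 side. Against control at 5 weeks these were ADAM10 with CSE 1% (-0.073), ADAM32 with CSE 1% (0.40) and CSE 5% (0.16), and TIMP4 with CSE 1% (-0.093). For the difference between 5 weeks and 1 week they were MMP7 with CSE 1% (-0.34), ADAM17 with CSE 5% and 10% (-0.038 and -0.052), ADAM32 with CSE 10% (0.024), TIMP4 with CSE 10% (-0.62), and ADAMTS5 with CSE 1%, 5% and 10% (0.056, 0.16 and 0.081). Since they hold no control array, the latter values do not show that a call reversed. With the controls of weeks 1 and 3 the genes that fell at 5 weeks went from 26, 35 and 30 to 3, 9 and 8. In exposed cells alone, 9 genes differed between 5 weeks and 1 week with CSE 5% and 9 with CSE 10%. The cause was not tested.

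Cyclic loess gave 9, 15 and 13 genes that fell at 5 weeks with CSE 1%, 5% and 10%, and 18 (34 as reported) that differed between controls of 5 and 3 weeks. Among the 60% brightest clusters, where 30 genes were tested, 12, 15 and 13 fell at 5 weeks, 3 rose and 2 fell with CSE 1% at 1 week, 2 differed between CSE 10% and 5% at 5 weeks, and 14 between these controls. Centring on 23 housekeeping genes, which moved arrays by -0.08 to 0.10, gave 4 fallen with CSE 1% and 2 with CSE 5% at 1 week; at 3 weeks it gave 11 risen and 1 fallen with CSE 1%, 2 fallen with CSE 5%, and 18 risen and 2 fallen with CSE 10%; and it gave 16 fallen with CSE 10% at 5 weeks.

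Fitting the compared arrays alone, with fewer degrees of freedom, gave with CSE 1% at 1 week 1 risen and 0 fallen (4 at an unadjusted limma p under 0.05), with CSE 5% at 1 week 2 fallen, with CSE 1% at 3 weeks 1 fallen, and at 5 weeks 8, 22 and 19 fallen. It gave 1 gene each between CSE 10% and 5% at 1, 3 and 5 weeks and between CSE 5% and 1% at 3 and 5 weeks, 6 whose change with CSE 1% differed between weeks, 0 between controls of 3 and 1 week (7 unadjusted) and 19 between those of 5 and 3 weeks. The stricter thresholds, over 1 in log2 and over 0 in B, gave at 1 week 0 and 0, 1 and 1, and 2 and 1 genes risen and fallen, at 3 weeks 2 and 1, 4 and 1, and 2 and 1, and at 5 weeks 4 and 1, 7 and 1, and 4 and 1. The mean of a gene's clusters gave 2 fallen with CSE 1% at 1 week. The replicate number as a block gave 1 gene between CSE 10% and 5% at 1 week, 8 risen and 25 fallen with CSE 1% at 5 weeks, and lost 3 calls of the named genes, none of a change beyond 1; it changed no other count by over 1.5 times.

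Leaving out each array in turn, the genes risen with CSE 1% at 1 week ranged from 2 to 5 and those fallen from 0 to 1; only 2 rose without the third CSE 1% culture, and none fell without the second control or the first CSE 1% culture (8 and 4 unadjusted). Those fallen ranged from 2 to 3 with CSE 5% and 3 to 6 with CSE 10% at 1 week, from 1 to 3, 2 to 4 and 2 to 4 with CSE 1%, 5% and 10% at 3 weeks, and from 17 to 27 with CSE 10% at 5 weeks, fewest without the first 5-week control. Genes that differed between CSE 5% and 1% ranged from 5 to 7 at 1 week and 1 to 3 at 3 weeks, and between CSE 10% and 5% from 1 to 3, 0 to 1 and 0 to 3 at 1, 3 and 5 weeks, the counts of 0 having 9 unadjusted. Those whose change differed between weeks ranged from 9 to 19 with CSE 1% (fewest without the second CSE 1% culture of 5 weeks), 12 to 26 with CSE 5% and 10 to 20 with CSE 10% (both fewest without the first 1-week control), and those between controls of 3 and 1 week from 3 to 6. Precision is limited by the 3 arrays of a group, and 32 of the 62 genes lay below the brightness limit.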
